A study of Mus musculus with 50 samples.

Results

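Semaphorins, plexins and neuropilins were followed in RNA from frontal cortex of mice carrying 1 inactive copy of Setd1a and of wild-type controls. The 31 genes are 20 semaphorins, the ligands, and 11 receptors, of which 9 are plexins and 2 are neuropilins. They were chosen by name: every protein-coding gene of the mouse GENCODE annotation whose symbol is Sema followed by a class number from 3 to 7, begins with Plxn, or is Nrp1 or Nrp2. They are 31 of the 21897 protein-coding genes in the files, and all 31 had enough counts to be tested, among 16330 tested genes. One of them, Sema4c, encodes a protein whose abundance in synaptosomes was a subject of the original study.

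Semaphorins are secreted or membrane-bound proteins that share a domain, the sema domain, and steer growing axons and migrating cells by binding plexins, which carry a GTPase-activating part inside the cell. Most secreted class 3 semaphorins reach plexins only together with a neuropilin, a co-receptor with a short cytoplasmic tail, whereas the membrane-bound classes mostly bind plexins directly. In the developing cortex these genes are known for guiding axons and migrating neurons and for shaping dendrites and synapses, and neuropilins and some semaphorins also act in blood vessels.

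Setd1a encodes a histone methyltransferase, and the study asked how losing 1 copy alters gene expression in frontal cortex over development. Bulk RNA sequencing gave 50 libraries, 5 for each genotype at E14, E18, P7, P35 and P70 (embryonic and postnatal days), labelled WT (wild-type) and Het (Setd1a+/-) and all of the strain C57BL/6NTac. The study's methods describe a heterozygous tm1d loss-of-function allele made from a knockout-first design, on a mixed C57BL/6NTac and C57BL/6J background, with heterozygous fathers, wild-type mothers and male offspring. By those methods embryos gave frontal brain regions and postnatal mice gave frontal cortex. The step from E18 to P7 therefore also spans a change of dissection. Total counts per library ranged from 35507165 to 43907318, with a median of 38626998.

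The labelled tissue was checked against marker genes of cell types, with levels as RPKM (reads scaled to exon length and library size). Neuron markers (Rbfox3, Snap25, Syt1, Tubb3 and Map2), cortical excitatory neuron markers (Slc17a7, Neurod6, Neurod2 and Tbr1) and the dorsal forebrain marker Emx1 had counts in every library. Markers of striatal neurons, led by Ppp1r1b, spread widely between libraries, at 181 ± 49.99 RPKM (mean ± SD, n = 10) at P35 and 183 ± 67.3 at P70. Choroid plexus markers (Ttr, Folr1 and Kl), of a tissue outside the cortex, summed to 0.0506, 14.9, 299.7, 201 and 315 RPKM in wild-type and 45.7, 0.295, 139, 346 and 372 in Setd1a+/- libraries at E14.

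Setd1a itself was measured first. At E14 its level was 18.99, 19.1, 20.1, 17.5 and 17.5 RPKM in the 5 wild-type libraries and 22.1, 20.1, 18.8, 20.6 and 19.1 in the 5 Setd1a+/- libraries. At E18 the wild-type libraries held 13.8, 14.1, 13.9, 12.6 and 14.7 RPKM and the Setd1a+/- libraries 15.3, 17.2, 14.3, 15.3 and 16.7. The P7 values were 10.7, 11.2, 10.3, 10.4 and 10.5 RPKM in wild-type and 12.1, 11.5, 11.2, 12.3 and 12.3 in Setd1a+/- tissue. No library labelled Het was below all wild-type libraries of its age up to this point, and at P7 the 5 Het values were all above the 5 wild-type values. At P35 wild-type libraries had 13.5, 12.1, 12.02, 12.5 and 12.5 RPKM and Setd1a+/- libraries 13.5, 12.97, 12.996, 13.2 and 13.5. The P70 libraries gave 12.4, 13.05, 12.5, 12.01 and 13.5 RPKM in wild-type and 12.1, 12.7, 11.99, 11.3 and 14.4 in Setd1a+/-, and the groups overlapped at both of these ages. With age as a covariate Setd1a was higher in Setd1a+/- (edgeR quasi-likelihood test, log2 fold change 0.10, standard error 0.0251, adjusted p = 0.00679). A count over the whole gene also takes fragments from outside the targeted part of the tm1d allele, and 52.3% of the exonic bases of Setd1a overlap other annotated genes, chiefly Gm49388, so this count does not check the genotype labels. The study cites an earlier report of less Setd1a protein in cortex of these mice, which was not analysed here.

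Some libraries stood apart. In 2 wild-type libraries, replicate 5 of E14 and replicate 2 of E18, Xist, the RNA of the inactive X chromosome, had at least 55644 counts. In these 2 libraries 4 Y-linked genes together had at most 11 counts. In the other 48 libraries Xist had at most 27 counts and the Y-linked genes at least 4711. The 2 libraries thus have the pattern of female mice, whereas the methods describe male offspring. Both are wild-type, so by these counts sex is not balanced between genotypes at E14 and E18. Wild-type replicate 2 at P7 differed most from its group: over all genes the SD of its log2 deviations was 0.55, against 0.22 to 0.27 in the other P7 libraries. In that library the choroid plexus markers summed to 506 RPKM, while the other 9 P7 libraries were all under 1, and oligodendrocyte markers summed to 179.7 RPKM. It was also the lowest P7 library for neuron markers (774 RPKM, the others 1127 to 1247) and cortical excitatory neuron markers (168, the others 257 to 308). For astrocyte markers (Slc1a2 and others) it was the highest, at 254 RPKM against 159.6 to 185 in the others. In Setd1a+/- replicate 2 at E14 the endothelium markers (Cldn5, Pecam1, Tek, Cdh5 and Flt1) summed to 212.6 RPKM, against 32.6 to 68.3 in the other E14 libraries.

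Before birth a plexin had the highest level of the 31 members, and after birth a semaphorin did. At E14 the mean level was 44.1 ± 6.85 RPKM (SD, n = 10) for Plxna3, a receptor used with neuropilins by class 3 semaphorins, and 43.2 ± 3.77 for Plxnb2, a receptor of class 4 semaphorins. At E18 Plxna3 was at 40.7 ± 4.11 and the membrane-bound ligand Sema6c at 38.3 ± 4.64. In both pairs the means lay within 1 SD of each other. From P7 on, Sema7a, a semaphorin held in the membrane by a lipid anchor, had the highest level, at 65.0 ± 6.58 RPKM at P7, 68.5 ± 2.97 at P35 and 75.2 ± 8.42 at P70. Next came the receptor Plxna1 at P7 (42.2 ± 4.55) and the ligand Sema6b at P35 (50.04 ± 1.66) and P70 (42.7 ± 2.95), each separated from Sema7a by more than the SD of either. At the low end Plxnb3, a receptor of Sema5a, was at 0.0545 ± 0.0270 RPKM at E14, with 5 to 26 counts per library, and the secreted ligand Sema3b was the lowest at P7, P35 and P70, at 0.750 ± 0.197, 0.688 ± 0.123 and 0.667 ± 0.131 RPKM.

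By mean level over both genotypes, 10 members peaked at E14, 8 at E18 and 6 at P7, while 2 did so at P35 and 5 at P70, and 13 were lowest at P70. Of the 11 receptors, 5 were highest at E14, 3 at E18, 2 at P7 and 1, Plxnb3, at P70. The highest age exceeded the lowest by over 4-fold in 9 members and by under 2-fold in 6, with a median of 3.09-fold over the 31. Plxnb3 had the widest range, 96.6-fold, and Sema3b the narrowest, 1.39-fold. A heat map of log2(RPKM + 0.1), each member centred on its mean, shows Plxnb3 at the low end of the scale in the E14 and E18 libraries and at the high end at P35 and P70, with Sema4c, Sema4g, Sema6c and Plxna3 running the other way.

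**Figure D1:**
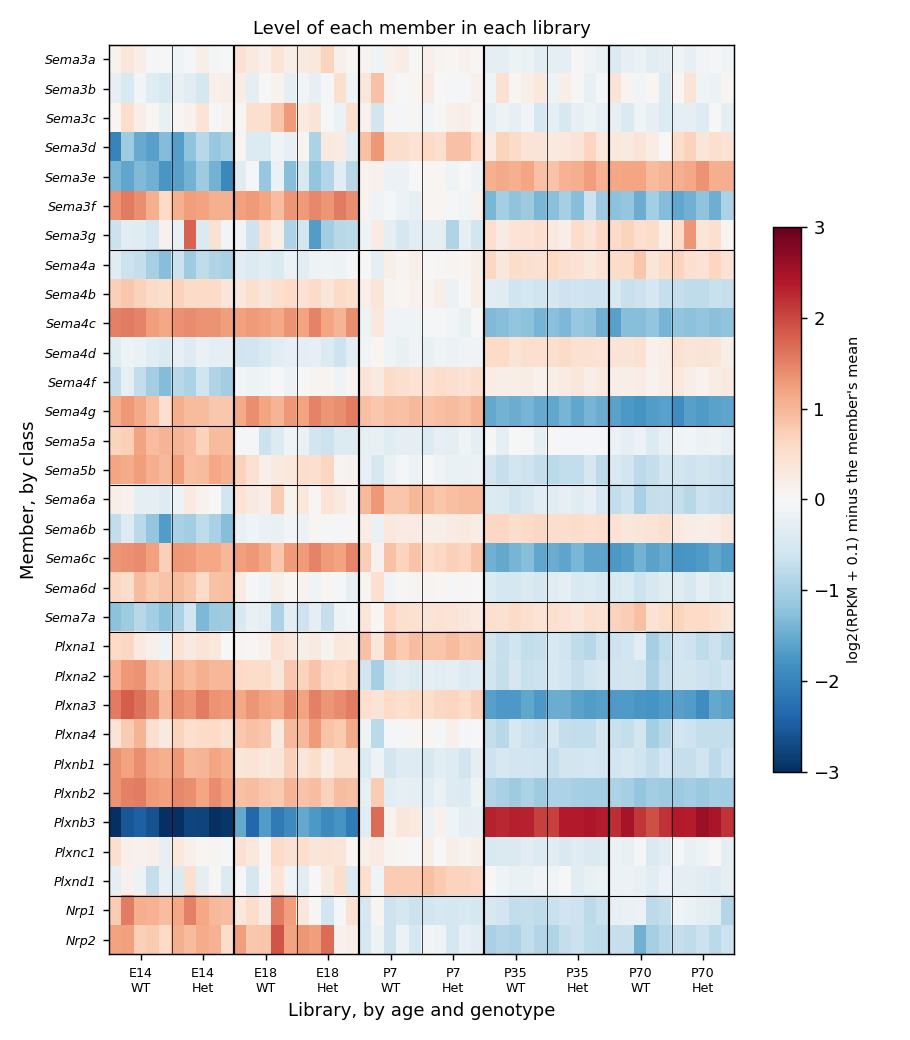
Level of each of the 31 members (vertical axis, by class) in each of 50 libraries (horizontal axis, by age and genotype), as log2(RPKM + 0.1) minus the mean of that member, so that red is above and blue below its mean. Plxnb3 runs from 0.0515 RPKM at E14 (median, n = 10) to 5.22 at P70, and Plxna3 from 42.9 to 4.89.

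Summed per library, the 3 classes ended at different points. The 20 semaphorins together held 226 ± 30.0 RPKM (mean ± SD, n = 5) in wild-type and 222 ± 12.5 in Setd1a+/- tissue at E14, and 209 ± 11.6 and 199.5 ± 6.29 at P70, so that the libraries of these ages overlapped. This sum joined opposite courses. Over both genotypes, semaphorin classes 3, 4, 5 and 6 had mean sums of 25.2, 76.9, 23.6 and 74.3 RPKM at E14. At P70 these were lower, at 15.7, 48.1, 8.02 and 57.3. Sema7a, the only class 7 member, went from a mean of 24.3 to 75.2 RPKM, and Sema6b from 17.6 to 42.7. The 9 plexins held 241 ± 33.6 RPKM in wild-type and 231 ± 11.6 in Setd1a+/- libraries at E14, against 88.5 ± 2.23 and 88.9 ± 3.33 at P35 and 86.8 ± 6.63 and 87.1 ± 1.79 at P70. Every E14 library had a higher plexin sum than every P35 or P70 library. The neuropilin sum was 21.3 ± 3.81 RPKM in wild-type and 22.0 ± 2.75 in Setd1a+/- tissue at E14 and 6.46 ± 0.923 and 7.13 ± 0.545 at P70, and it spread most at E18, from 11.03 to 36.5 RPKM. These sums were not tested. Since the tissue is bulk, fewer cells of a type and less RNA per cell cannot be told apart.

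**Figure D2:**
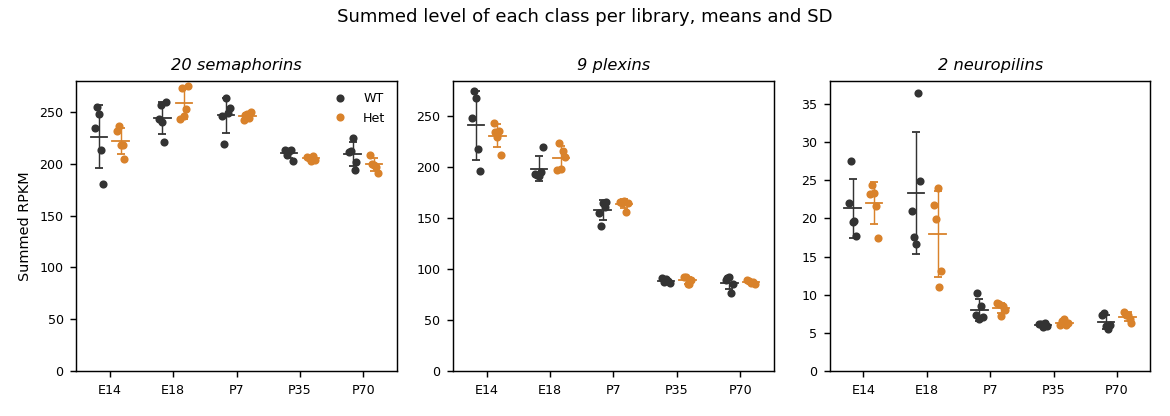
Summed RPKM of the 20 semaphorins, 9 plexins and 2 neuropilins in each library by age, wild-type in black and Setd1a+/- in orange, with the mean and SD of 5 libraries. The plexin sum goes from 241 RPKM in wild-type tissue at E14 to 86.8 at P70, the semaphorin sum from 226 to 209. Within the semaphorin sum, Sema7a and Sema6b are higher at P70 than at E14, and the sums of classes 3 to 6 are lower.

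Consecutive ages were compared over both genotypes, 10 libraries against 10, with edgeR's quasi-likelihood test, and a gene was called at a Benjamini-Hochberg adjusted p under 0.05 over all 16330 genes. From E14 to E18, 23 of 31 members were called (73.4% of all tested genes were), 13 higher (36%) and 10 lower (37.4%). From E18 to P7, 27 members were called (76.1% of all), 11 higher (37.9%) and 16 lower (38.2%). The step from P7 to P35 gave 28 calls (76.1% of all), 7 higher (38%) and 21 lower (38.1%), and that from P35 to P70 gave 4 (9.74% of all), 1 higher (5%) and 3 lower (4.75%). From P7 to P35 the lower members outnumber the higher ones, while among all tested genes the 2 directions hold nearly equal shares. The median log2 fold change of the members was 0.17, −0.23, −0.33 and −0.04 over the 4 steps, against −0.0025, 0.0002, −0.0014 and 0.00079 over all tested genes.

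Changes of at least 2-fold were fewer. From E14 to E18, 2 members were at least 2-fold higher (11.7% of all tested genes) and 1 lower (5.01%); from E18 to P7, 1 was higher (11.3%) and 5 lower (5.02%). With DESeq2's size factors in place of TMM the latter counts were 2 and 4, and with scaling by library size alone 1 and 7. From P7 to P35, 2 members were at least 2-fold higher (10.3%) and 7 lower (9.17%), and from P35 to P70 the counts were 0 higher (0.147%) and 0 lower (0.171%), with DESeq2 and limma-voom also giving 0 and 8 members at an unadjusted p under 0.05. The members below were named as the up to 3 largest rises and falls among these at each step.

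Among the ligands, the 7 secreted class 3 semaphorins gave 5 (4 higher and 1 lower) from E14 to E18 (73.4% of all tested genes), 5 (2 higher and 3 lower) from E18 to P7 (76.1%) and 6 (2 higher and 4 lower) from P7 to P35 (76.1%), and none was called from P35 to P70 (9.74%). Sema3d, a secreted guidance cue that also acts on vessels, held 0.0854, 0.215 and 0.323 RPKM (lowest, median and highest of 10 libraries) at E14 and 0.291, 0.561 and 0.826 at E18. The highest E14 library lay above the lowest E18 library, so the ages overlapped, and the level was called higher at E18 (log2 fold change 1.52, standard error 0.155, adjusted p = 6.74e-12). Sema3e, which binds Plxnd1 without a neuropilin, went from 1.38, 1.58 and 1.75 RPKM at P7 to 2.94, 3.43 and 3.92 at P35. The libraries of these ages did not overlap, and the log2 fold change was 1.13 (standard error 0.118, adjusted p = 8.38e-12). Sema3f, a repellent that acts through Nrp2, fell after birth. Its level was 12.3, 16.01 and 19.2 RPKM at E18 and 5.35, 6.18 and 6.96 at P7, with no overlap (log2 fold change −1.35, standard error 0.0859, adjusted p = 1.54e-18). The medians of Sema3a, the best known repellent of cortical axons, stayed between 1.80 and 2.65 RPKM over the 5 ages, and those of Sema3c, which can attract cortical axons, between 4.05 and 6.69.

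Of the 6 membrane-bound class 4 semaphorins, 5 (3 higher and 2 lower) from E14 to E18 (73.4% of all tested genes), 6 (3 higher and 3 lower) from E18 to P7 (76.1%) and 6 (2 higher and 4 lower) from P7 to P35 (76.1%) were called, and 2 (0 higher and 2 lower) from P35 to P70 (9.74%). Sema4c, a ligand of Plxnb2, held 23.5, 27.3 and 33.0 RPKM at E18 and 9.95, 10.9 and 14.5 at P7, and the libraries did not overlap. Over both genotypes the log2 fold change was −1.31 (standard error 0.0588, adjusted p = 8.55e-24), −1.28 in wild-type libraries alone and −1.35 in Setd1a+/- libraries alone. A further fall at P35 brought Sema4c to 4.20, 4.79 and 5.21 RPKM (log2 fold change −1.25). Sema4g, whose known receptor is likewise Plxnb2, had the largest fall of any member between consecutive ages. Its level was 19.2, 20.5 and 22.2 RPKM at P7 and 3.64, 3.85 and 4.13 at P35, again without overlap (log2 fold change −2.41, standard error 0.0625, adjusted p = 4.38e-33). In contrast Sema4a, Sema4d and Sema4f had higher medians at P70 than at E14, at 14.8 against 5.57, 10.4 against 6.55 and 12.2 against 5.80 RPKM. Exons of Sema4c overlap another annotated gene over 7.27% of their bases, and fragments there are counted for both.

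Both class 5 semaphorins, which carry thrombospondin repeats, were called lower from E14 to E18 (37.4% of all tested genes were). Sema5a, known to act on axons through Plxna1, Plxna2 and Plxnb3, stood at 5.07, 6.03 and 7.41 RPKM at E14 and 1.95, 2.33 and 3.08 at E18, and no E18 library reached the lowest E14 library. The log2 fold change was −1.29 (standard error 0.0667, adjusted p = 4.39e-21), the only fall of at least 2-fold at this step, and the later medians were 2.56, 3.03 and 2.77 RPKM. The 4 class 6 semaphorins are membrane-bound ligands of A-type plexins. Sema6c went from 17.3, 25.8 and 29.3 RPKM at P7 to 5.24, 5.504 and 6.48 at P35 without overlap (log2 fold change −2.18, standard error 0.0782, adjusted p = 8.66e-28). Sema6b took the opposite course, with medians of 17.2, 31.7, 39.96, 49.1 and 43.2 RPKM from E14 to P70. Sema7a, which promotes axon growth and is read by Plxnc1 and integrins, had medians of 23.7, 39.97, 65.1, 68.6 and 74.2 RPKM, called higher at E18 and P7 and not at P35.

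Of the 9 plexins, 6 (3 higher and 3 lower) from E14 to E18 (73.4% of all tested genes), 9 (3 higher and 6 lower) from E18 to P7 (76.1%) and 9 (1 higher and 8 lower) from P7 to P35 (76.1%) were called. Plxnb3 was the one plexin called higher at all 3 of these steps. Its level was 0.0182, 0.0515 and 0.101 RPKM (lowest, median and highest of 10) at E14 and 0.114, 0.205 and 0.277 at E18, then 0.744, 0.987 and 3.40 at P7, 4.39, 5.32 and 5.80 at P35 and 4.09, 5.22 and 6.51 at P70. Libraries of neighbouring ages did not overlap up to P35, whereas P35 and P70 did. The log2 fold changes were 1.91 (standard error 0.256, adjusted p = 8.24e-09), 2.52 (0.186, adjusted p = 2.08e-16) and 2.15 (0.161, adjusted p = 3.38e-16) over the first 3 steps. Without wild-type replicate 2 at P7, whose Plxnb3 level was 3.40 RPKM, they were 1.91, 2.26 and 2.41. Oligodendrocyte markers (Mbp, Mog, Mag, Mobp and Cnp) were set beside this gene: 2 of 5 were called higher from E14 to E18, 4 from E18 to P7 and 5 from P7 to P35, and their sum per library ran from 20.1 to 26.6 RPKM at E14, 25.4 to 30.4 at E18 and 34.4 to 179.7 at P7, then 487 to 661 at P35 and 366 to 487 at P70. Mog was called lower from E18 to P7, from between 8.63 and 11.02 RPKM to between 3.51 and 4.67 in 9 of the 10 P7 libraries, with wild-type replicate 2 at 9.21. Cnp was the most abundant of them up to P7 and Mbp from P35, and Mobp was at 0 in at least 1 library at E18. Over the E14 and E18 libraries Mag was at 0.0406 to 0.254 RPKM and Mobp at no more than 0.0909. The sums at these ages therefore came almost wholly from Cnp, Mog and Mbp. The part of the oligodendrocyte markers in the Plxnb3 result was not tested.

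The other 8 plexins were all called lower from P7 to P35 (38.1% of all tested genes were). Plxna3 held 21.2, 24.2 and 26.4 RPKM at P7 and 4.83, 5.16 and 5.70 at P35, and no P35 library came near the lowest P7 library (log2 fold change −2.21, standard error 0.0622, adjusted p = 8.61e-32). Plxna1, a receptor that serves class 3 and class 6 semaphorins, also fell by over 2-fold at this step, from a median of 42.7 to 14.9 RPKM. Exons of Plxna1 overlap another annotated gene over 10.7% of their bases. Plxnb2 and Plxna2 fell earlier, by over 2-fold between E18 and P7, with medians of 30.9 and 13.9 RPKM for Plxnb2 and 25.6 and 12.7 for Plxna2. Plxnd1, the receptor of Sema3e, was highest at P7, where its median was 32.5 RPKM against 19.4 at E18 and 17.7 at P35. Across the P7 to P35 step the remaining members at least 2-fold lower were Sema6a, a membrane-bound ligand of Plxna2 and Plxna4, together with Sema4c and Sema3f.

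Of the co-receptors, Nrp2, which pairs with A-type plexins to receive Sema3f, held 7.24, 15.7 and 24.8 RPKM at E18 and 4.30, 5.46 and 6.32 at P7. The ages did not overlap, although the E18 libraries spread widely, and the log2 fold change was −1.49 (standard error 0.140, adjusted p = 4.58e-13). Nrp1, the co-receptor of Sema3a and of vascular growth factor, was called lower at both earlier steps, with medians of 8.35 RPKM at E14, 4.98 at E18 and 2.70 at P7, and was not called from P7 to P35. All 10 members named by age step except Sema3d are plotted per library, where Sema4c, Sema3f and Nrp2 drop between E18 and P7 and Sema4g, Sema6c and Plxna3 between P7 and P35.

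**Figure D3:**
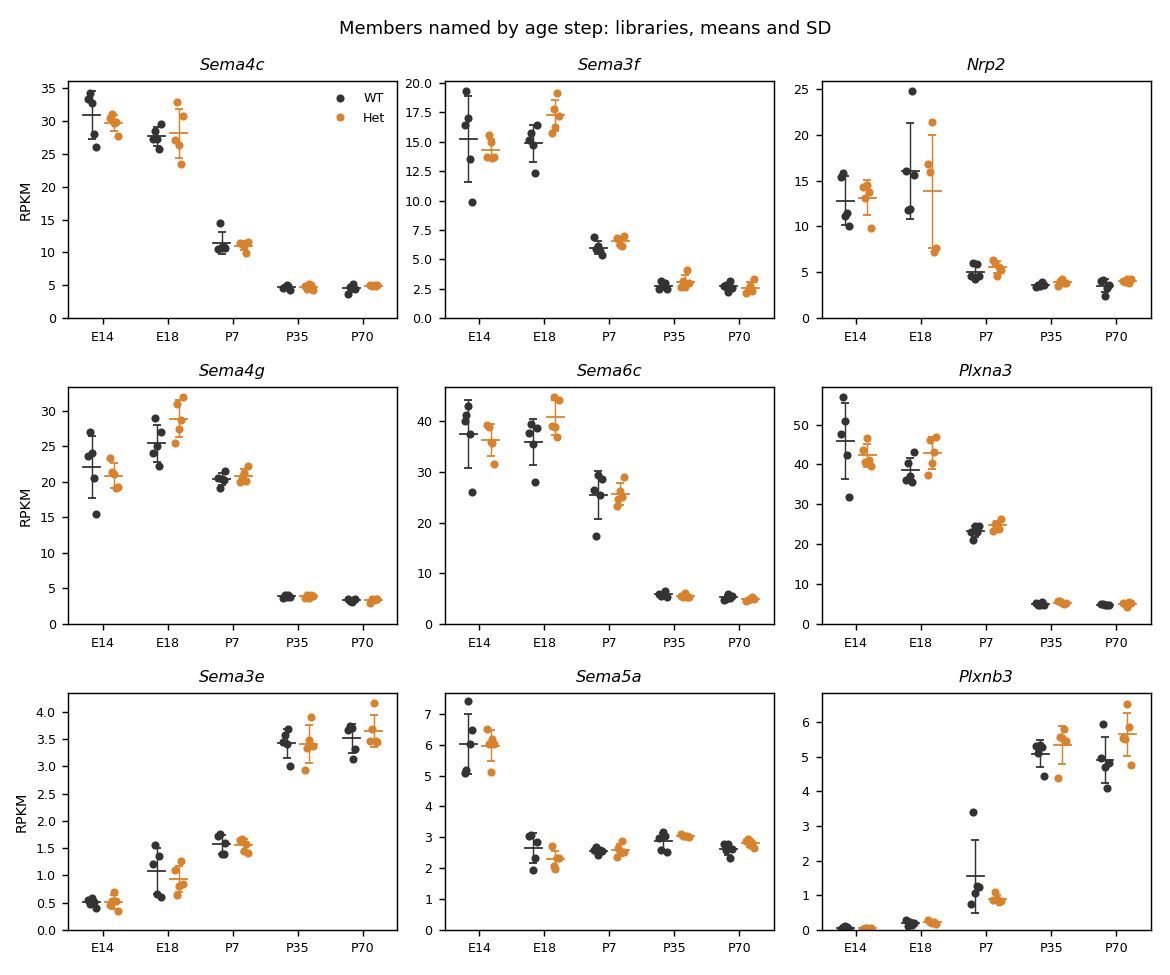
RPKM of 9 members in each library by age, wild-type in black and Setd1a+/- in orange, with the mean and SD of 5 libraries. Sema4g stands at a median of 20.5 RPKM at P7 and 3.85 at P35 (n = 10), and Plxnb3 at 0.987 and 5.32.

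Between P35 and P70 the 4 called members changed little. Sema6a had a median of 4.45 RPKM at P35 and 3.53 at P70 (log2 fold change −0.35, standard error 0.0845, adjusted p = 0.00495), Sema4g of 3.85 and 3.40 (log2 fold change −0.21, standard error 0.0610, adjusted p = 0.0191), Sema4d, a ligand of Plxnb1, of 11.2 and 10.4 (log2 fold change −0.17, standard error 0.0480, adjusted p = 0.0198), and Plxnc1 of 6.99 and 8.22 (log2 fold change 0.22, standard error 0.0628, adjusted p = 0.0178). They were named after their values were seen. In wild-type libraries alone none of the 4 passed, at adjusted p = 0.433, 0.493, 0.368 and 0.639 in edgeR. In Setd1a+/- libraries alone Sema4g (adjusted p = 0.0741) and Sema4d (0.215) did not, and without Setd1a+/- replicate 1 at P70 the adjusted p of Sema4g was 0.0512.

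Marker lists of other cell types shifted as well, with calls given here for P7 to P35. From E18 to P7 the mean sum of interneuron markers went from 137 to 74.9 RPKM and that of cortical excitatory neuron markers from 405 to 266. Over the same step astrocyte markers went from 63.7 to 179 RPKM and oligodendrocyte precursor markers from 49.5 to 103. From P7 to P35, where 7 members were at least 2-fold lower, oligodendrocyte markers were called higher in 5 of 5 genes, with a median log2 fold change of 4.16, and progenitor markers (Sox2, Pax6, Eomes, Hes5 and Mki67) were called lower in 4 of 5 with a median of −1.01. The progenitor sum was 212.7 ± 26.4 RPKM (SD, n = 10) in the E14 libraries, 91.2 ± 10.1 at E18, 54.1 ± 8.14 at P7 and 37.8 ± 3.51 at P35, led by Sox2 except at P7, where Hes5 led, and no progenitor marker was at 0 in any library. Calls in these and the other lists stand beside shares of all tested genes of 38% higher and 38.1% lower at this step. Striatal neuron (5 of 5), microglia (5 of 5) and erythroid (5 of 5) markers were called higher, and mural cell (3 of 4), oligodendrocyte precursor (3 of 4) and meningeal fibroblast (3 of 6) markers lower, while neuron, cortical excitatory neuron, interneuron, astrocyte and endothelium markers had calls in both directions and choroid plexus markers none. What part such shifts in cell types have in the falls of Sema4g, Sema6c and Plxna3 was not tested. The earlier falls of Sema4c, Sema3f and Nrp2 also span the change of dissection between E18 and P7. What part cell types or dissection have in these earlier falls was not tested.

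The start regions of the 5 members named from P7 to P35 are shown because these members moved at the same step, Plxnb3 and Sema3e upward and Sema4g, Plxna3 and Sema6c downward. RefSeq start windows of build GRCm38.p6, from 250 bases before to 50 bases after the transcript start, were matched by symbol for 26 of the 31 members, which have 37 windows among 32851; Plxna1, Plxna4, Sema3b, Sema3f and Sema6a had no entry. Both strands were searched for 9 motifs, and capitals mark 3 of them, chosen after the matches were seen: the GC box GGGCGG, in 27 of 37 member windows and 35.7% of all windows, a SOX motif ACAAAG, in 8 of 37 member windows and 18.7% of all windows, and an E-box CAGCTG, in 6 of 37 member windows and 16.3% of all windows. The other 6 were a second SOX motif (ACAATG, in 5 of 37 member windows and 12.6% of all windows), 2 further E-boxes (CACGTG, in 3 of 37 member windows and 7.15% of all windows, and CAGATG, in 2 of 37 member windows and 17.2% of all windows), a cAMP response element (TGACGTCA, in 0 of 37 member windows and 1.79% of all windows), a TATA box (TATAAA, in 0 of 37 member windows and 13.6% of all windows) and a CCAAT box (CCAAT, in 7 of 37 member windows and 37.4% of all windows). The windows, all on the plus strand, are chrX:73756853-73757152 for Plxnb3, chr5:14025026-14025325 for Sema3e, chr19:44989094-44989393 for Sema4g, chrX:74328816-74329115 for Plxna3 and chr3:95160170-95160469 for Sema6c, each in lower case with matches in capitals.
Plxnb3: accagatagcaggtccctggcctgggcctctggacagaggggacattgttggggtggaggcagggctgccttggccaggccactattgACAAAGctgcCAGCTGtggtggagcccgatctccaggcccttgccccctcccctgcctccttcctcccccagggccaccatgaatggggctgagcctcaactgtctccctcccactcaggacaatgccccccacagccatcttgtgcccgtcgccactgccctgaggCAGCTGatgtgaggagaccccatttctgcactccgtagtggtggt
Sema3e: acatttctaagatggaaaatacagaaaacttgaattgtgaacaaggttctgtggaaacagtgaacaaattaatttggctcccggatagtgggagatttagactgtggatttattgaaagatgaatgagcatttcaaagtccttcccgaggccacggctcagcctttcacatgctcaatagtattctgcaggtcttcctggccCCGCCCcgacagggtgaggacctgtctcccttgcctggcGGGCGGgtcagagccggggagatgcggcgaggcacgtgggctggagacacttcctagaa
Sema4g: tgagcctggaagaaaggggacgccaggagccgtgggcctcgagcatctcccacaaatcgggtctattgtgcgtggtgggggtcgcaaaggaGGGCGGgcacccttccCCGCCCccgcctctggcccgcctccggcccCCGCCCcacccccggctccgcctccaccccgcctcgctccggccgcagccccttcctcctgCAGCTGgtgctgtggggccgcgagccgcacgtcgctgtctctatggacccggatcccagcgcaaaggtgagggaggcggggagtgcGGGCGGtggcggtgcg
Plxna3: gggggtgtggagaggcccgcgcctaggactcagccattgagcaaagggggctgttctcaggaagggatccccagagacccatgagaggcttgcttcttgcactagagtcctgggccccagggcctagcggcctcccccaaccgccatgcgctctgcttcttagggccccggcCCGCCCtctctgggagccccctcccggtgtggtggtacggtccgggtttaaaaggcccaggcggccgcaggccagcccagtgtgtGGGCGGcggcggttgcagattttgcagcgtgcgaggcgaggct
Sema6c: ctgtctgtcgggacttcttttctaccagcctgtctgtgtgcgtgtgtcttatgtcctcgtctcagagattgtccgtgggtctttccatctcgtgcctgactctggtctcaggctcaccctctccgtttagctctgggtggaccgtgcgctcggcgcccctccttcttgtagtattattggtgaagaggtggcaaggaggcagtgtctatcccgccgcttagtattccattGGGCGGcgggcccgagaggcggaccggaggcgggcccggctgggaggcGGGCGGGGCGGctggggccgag

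The Plxnb3 window held 0 GC boxes, 1 SOX motif ACAAAG and 2 E-boxes. The Sema4g window held 4 GC boxes and 1 E-box, that of Sema6c 3 GC boxes, and those of Sema3e and Plxna3 2 GC boxes each. The other motifs gave 2 matches to the second SOX motif in the Plxnb3 window, 1 further E-box in that of Sema3e and 2 CCAAT boxes in that of Sema6c. Each is the window nearest to the annotated start of its gene, and an E-box CAGCTG of Sema6c lies in its other window. These matches describe letters only.

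Some members are neighbours in the genome. Plxnb3 and Plxna3, which moved in opposite directions from P7 to P35, both lie on the plus strand of chromosome X, 556551 bases apart with 23 protein-coding genes between them. Sema3b and Sema3f lie 72270 bases apart on chromosome 9 with 3 genes between them. Sema3d, Sema3a and Sema3e follow each other on chromosome 5, with 536465 and 422710 bases between neighbours.

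The partners of the family were followed as 2 lists. The first holds 14 co-receptors and other receptors or ligands of the same receptors, of which 13 were tested (Timd2 had too few counts), and the second 31 cytoplasmic mediators, all tested. Of the first list, 11 (7 higher and 4 lower) were called from E14 to E18 (73.4% of all tested genes), 7 (3 higher and 4 lower) from E18 to P7 (76.1%), 12 (3 higher and 9 lower) from P7 to P35 (76.1%) and 0 from P35 to P70 (9.74%), where 5 had an unadjusted p under 0.05 in edgeR. Met, a receptor tyrosine kinase that associates with B-type plexins, went from 0.159, 0.281 and 1.05 RPKM (lowest, median and highest of 10) at E14 to 1.24, 1.498 and 4.39 at E18, 6.42, 11.7 and 12.9 at P7 and 1.08, 1.30 and 1.505 at P35. Libraries of neighbouring ages did not overlap, and the log2 fold changes were 2.25, 2.62 and −3.09 with standard errors of 0.234, 0.216 and 0.222. From P7 to P35 the adhesion co-receptors L1cam (−1.61) and Chl1 (−1.86) and the kinase-like Ptk7 (−1.12) were also at least 2-fold lower, as log2 fold changes, and Flt1, a receptor of vascular growth factor, was higher (1.03).

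Of the 31 mediators, 29 (16 higher and 13 lower) were called from E14 to E18 (73.4% of all tested genes), 18 (11 higher and 7 lower) from E18 to P7 (76.1%), 25 (8 higher and 17 lower) from P7 to P35 (76.1%) and 6 (2 higher and 4 lower) from P35 to P70 (9.74%). The largest falls were among the collapsin response mediators, which carry the Sema3a signal to microtubules. Dpysl3 held 216, 383 and 418 RPKM at P7 and 8.15, 9.12 and 10.2 at P35, with no overlap (log2 fold change −5.32, standard error 0.0846, adjusted p = 1.10e-40). Dpysl5 went from 91.2, 161 and 168 to 5.54, 5.90 and 6.91 RPKM (log2 fold change −4.67, standard error 0.0899, adjusted p = 1.22e-37), and Crmp1 from 155, 238 and 254 to 29.2, 32.7 and 38.0 (log2 fold change −2.82, standard error 0.0702, adjusted p = 1.08e-33). Mical2, an oxidoreductase that acts on actin below plexins, was higher at all 3 of these steps, at 2.61, 1.504 and 1.12 on the log2 scale. The partners named here and above were picked after their values were seen.

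The comparison of Setd1a+/- with wild-type tissue, the study's main question, called no member in edgeR. With age as a covariate edgeR called 0 of 31 members (4.43% of all tested genes were called), and the unadjusted p was under 0.05 for 1 (14.5% of all), while DESeq2 and limma-voom also called 0 and gave 1 and 3 unadjusted. The test of whether the genotype effect differs by age called 0 members (0% of all), with 4 unadjusted (6.72% of all) and 0 calls by DESeq2 and limma-voom, which gave 4 and 2 unadjusted. The median log2 fold change with age as a covariate was −0.0012 over the members and 0.0012 over all genes, with 16 members below 0 and 15 above. A p that misses the threshold does not show that levels were equal.

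At single ages edgeR likewise called 0 members, 5 libraries against 5, although with a replicate block it called 1 at E18. At E14 2 members had an unadjusted p under 0.05 (11.6% of all genes, and 0.129% called), and DESeq2 and limma-voom called 0 with 2 and 1 unadjusted. At E18 the count was 5 (11.4% of all, and 0.11% called), DESeq2 called 1 member with 6 unadjusted, and limma-voom called 0 with 6. At P7 3 members had an unadjusted p under 0.05 (8.86% of all, and 0.735% called), with 0 calls by the other tools and 3 and 3 unadjusted. At P35 and P70 no member had an unadjusted p under 0.05 by edgeR, DESeq2 or limma-voom and none was called, against 3.37% and 6.55% of all genes by edgeR unadjusted and 0% and 0.233% called. Over the 5 ages these are 10 of 155 member tests. The members' median log2 fold change was −0.05, 0.04, 0.01, −0.0039 and 0.05 from E14 to P70, against −0.03, 0.02, −0.0037, 0.0048 and 0.0031 over all genes.

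**Figure D4:**
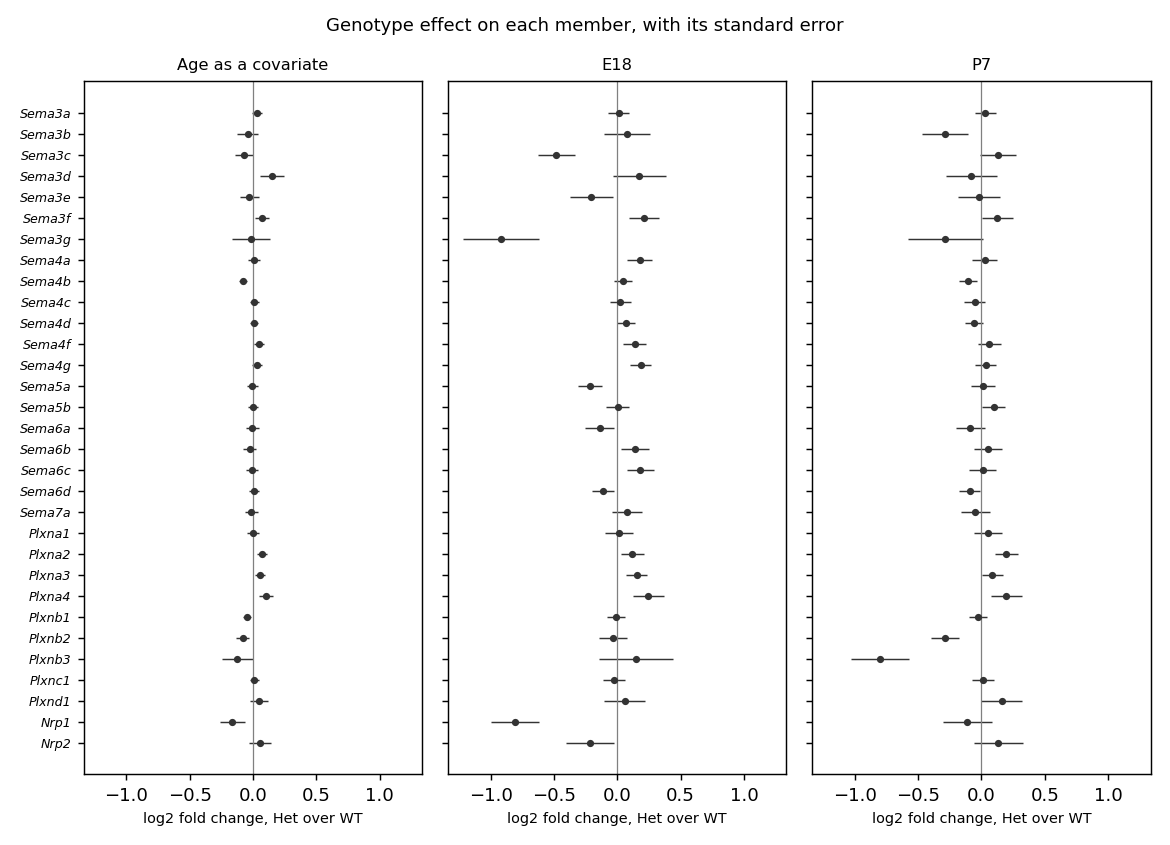
Log2 fold change of Setd1a+/- over wild-type for each of the 31 members with age as a covariate, at E18 and at P7, with bars of 1 standard error; 0 means no difference. Nrp1 (−0.81) and Sema3g (−0.92) at E18 and Plxnb3 (−0.80) at P7 lie farthest from 0, and no member passed the adjusted threshold in edgeR.

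The plot of genotype effects by member shows most points within their standard errors of 0 when age is a covariate, and a wider scatter at E18 and P7, where fewer libraries enter.

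Sema4c, the ligand whose protein drew attention in synaptosomes, did not differ by genotype in its RNA beyond the spread of the libraries. At E14 its level was 33.4, 34.3, 32.8, 28.04 and 26.1 RPKM in wild-type and 30.4, 31.1, 29.7, 29.8 and 27.8 in Setd1a+/- libraries. At E18 it was 27.3, 28.4, 27.3, 25.8 and 29.5 in wild-type and 27.1, 33.0, 26.4, 23.5 and 30.8 in Setd1a+/-. The genotypes overlapped at both ages, and the E14 wild-type group spanned the whole range of the Setd1a+/- group. P7 wild-type libraries held 10.5, 14.5, 10.8, 10.8 and 10.6 RPKM, with replicate 2 the highest, and Setd1a+/- libraries 11.4, 11.3, 10.9, 9.95 and 11.6. By P35 the values were 4.56, 4.72, 5.05, 4.90 and 4.33 in wild-type and 4.86, 4.48, 5.21, 5.01 and 4.20 in Setd1a+/-, and at P70 3.72, 4.71, 4.77, 5.11 and 4.34 and 5.04, 4.88, 5.04, 4.80 and 5.001, with overlap at each of these ages. In the covariate model its log2 fold change was 0.01 (standard error 0.0369, edgeR adjusted p = 0.960), and its sign changed without Setd1a+/- replicate 2 at E18 (−0.0019) or without wild-type replicate 1 at P70 (−0.0027). Its receptor Plxnb2 had −0.08 (standard error 0.0501).

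Sema4b, another class 4 ligand, was the member with an unadjusted p under 0.05 when age was a covariate. At E14 wild-type libraries held 7.28, 7.82, 7.17, 6.64 and 6.41 RPKM and Setd1a+/- libraries 7.26, 6.66, 6.62, 6.65 and 5.70, and at E18 5.65, 6.20, 5.66, 6.31 and 6.76 and 6.07, 6.69, 5.69, 6.61 and 6.48. At P7 the values were 5.15, 5.69, 4.69, 4.61 and 4.87 in wild-type and 4.68, 5.04, 3.92, 4.46 and 5.15 in Setd1a+/- libraries. The genotypes overlapped at each of these ages. At P35 they were 3.497, 3.43, 2.90, 3.06 and 2.88 and 3.07, 2.85, 2.89, 2.85 and 2.86, and at P70 3.15, 2.76, 2.83, 3.11 and 2.71 and 2.71, 2.58, 2.58, 2.74 and 2.72, again overlapping. The log2 fold change was −0.08 (standard error 0.0315, edgeR unadjusted p = 0.0136, adjusted p = 0.1697), and over the single ages it was −0.10, 0.04, −0.11, −0.12 and −0.13 from E14 to P70.

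Sema3g, a secreted class 3 ligand known from endothelium, had the smallest interaction p of the members (unadjusted p = 0.00161, edgeR adjusted p = 0.398), and without Setd1a+/- replicate 2 at E14 these were 0.00581 and 0.616. At E14 its level was 0.789, 1.01, 0.982, 0.882 and 1.44 RPKM in wild-type and 1.09, 4.63, 0.937, 1.82 and 1.23 in Setd1a+/- libraries. Setd1a+/- replicates 2 and 4 were above every wild-type library, and the other 3 lay within the wild-type range. The log2 fold change was 0.93 (standard error 0.290, adjusted p = 0.134), and without that library 0.31 (adjusted p = 1.00). It passed in edgeR without the Xist libraries (1.08, adjusted p = 0.0365), without wild-type replicate 5 (1.08, 0.0378), without Setd1a+/- replicate 1 (1.07, 0.0383) and without Setd1a+/- replicate 3 (1.10, 0.0331). At E14 the endothelium markers summed to 36.04, 36.7, 39.2, 33.1 and 48.4 RPKM in wild-type and 34.6, 212.6, 34.8, 68.3 and 32.6 in Setd1a+/- libraries, with Cldn5 the most abundant and none at 0, and 5 of 5 had an unadjusted p under 0.05 with 0 called, and 0 of 5 without Setd1a+/- replicate 2. Setd1a+/- replicate 2, the highest library for Sema3g, was also the highest for these markers, for mural cell markers (68.5 RPKM) and for meningeal fibroblast markers (133.02 RPKM). Their part in the Sema3g values was not tested.

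Sema3d, with a log2 fold change of 0.49 (adjusted p = 0.376), was the other member with an unadjusted p under 0.05 at E14. Plxna3 was −0.12 in Setd1a+/- tissue at E14 (adjusted p = 0.650) and was called without the Xist libraries (−0.23, adjusted p = 0.0488) or without wild-type replicate 5 alone (−0.22, 0.04999), whose level was 31.8 RPKM among wild-type values of 47.5, 56.8, 50.9, 42.3 and 31.8. The Setd1a+/- libraries had 43.5, 40.6, 46.7, 41.0 and 39.7 RPKM, within the wild-type range. Without wild-type replicate 2, the highest, the Plxna3 log2 fold change was −0.03 (adjusted p = 0.983). Sema6b, at −0.10 (adjusted p = 0.790), was called at −0.25 (adjusted p = 0.0468) only where wild-type replicate 2 at P7 was also left out. Apart from Sema4b, Sema4c and the interaction of Sema3g, the members described by genotype here were picked after their values were seen.

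At E18 Sema3g lay on the other side, at 1.197, 0.807, 1.82, 1.48 and 0.632 RPKM in wild-type and 0.855, 0.335, 0.579, 0.680 and 0.697 in Setd1a+/- libraries, with overlap (log2 fold change −0.92, standard error 0.298, edgeR adjusted p = 0.195). It was called without Setd1a+/- replicate 2 at E14 (adjusted p = 0.0435), a library of another age that enters through the shared spread. The secreted ligand Sema3c held 5.24, 6.94, 6.91, 8.82 and 12.03 RPKM in wild-type and 6.07, 6.47, 4.78, 4.36 and 6.95 in Setd1a+/- libraries. The highest values were those of wild-type replicates 4 and 5, and the rest overlapped. Its log2 fold change, −0.48 (standard error 0.145, adjusted p = 0.155), was −0.28 without wild-type replicate 5 (adjusted p = 0.341) and was called without the Xist libraries and wild-type replicate 2 at P7 (−0.53, adjusted p = 0.0475). The ligands Sema5a (−0.22) and Sema4g (0.18) also had an unadjusted p under 0.05 at this age.

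The co-receptor Nrp1 came nearest to the threshold at E18. Wild-type libraries held 4.94, 5.77, 4.67, 11.7 and 9.41 RPKM and Setd1a+/- libraries 5.03, 4.003, 2.60, 3.79 and 5.43. Wild-type replicates 4, 5 and 2 were above every Setd1a+/- library, while replicates 1 and 3 lay within the Setd1a+/- range. The log2 fold change was −0.81 (standard error 0.191, adjusted p = 0.0675 in edgeR and 0.0113 in DESeq2), and edgeR with a replicate block called it (−0.75, adjusted p = 0.0263). Without wild-type replicate 4 it was −0.57 (adjusted p = 0.343) and without replicate 5 −0.70 (0.0910). It was called without the Xist libraries (−0.88, adjusted p = 0.0279), without these and wild-type replicate 2 at P7 (0.0154), and without wild-type replicate 1 (0.0320), 2 (0.0329) or 3 (0.0367) at E18, wild-type replicate 2 at E14 (0.0493), Setd1a+/- replicate 2 at E14 (0.0246) or wild-type replicate 2 at P7 (0.0405). Endothelium markers at E18 summed to 90.8, 54.4, 145, 106 and 54.6 RPKM in wild-type and 48.3, 42.2, 52.8, 54.4 and 48.7 in Setd1a+/- libraries, with Cldn5 the most abundant and none at 0, and 4 of 5 had an unadjusted p under 0.05 with 0 called. Choroid plexus markers summed to 0.989, 1.19, 189, 151 and 5.66 RPKM in wild-type and 1.11, 0.316, 0.894, 1.42 and 0.781 in Setd1a+/- libraries, led by Ttr, with Folr1 at 0 in at least 1 library. Wild-type replicates 1, 3 and 4 had the highest endothelium sums, and replicates 3 and 4 the highest choroid plexus sums. The part of these cells in the Nrp1, Sema3c and Sema3g values was not tested.

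Among the plexins, 3 had an unadjusted p under 0.05 at P7: Plxnb3, Plxnb2 and Plxna2. Plxnb3 was at 0.744, 3.40, 1.08, 1.27 and 1.23 RPKM in wild-type and 0.859, 1.09, 0.897, 0.792 and 0.818 in Setd1a+/- libraries. Wild-type replicate 2 was the highest, replicate 1 the lowest of all 10, and the genotypes overlapped. The log2 fold change of −0.80 (standard error 0.229, edgeR adjusted p = 0.0997) was −0.28 without wild-type replicate 2 (adjusted p = 1.00), and it was called without wild-type replicate 1 (−0.97, 0.0170) or 3 (−0.90, 0.0399). Plxnb2 was at 14.03, 28.4, 13.2, 14.2 and 13.7 RPKM in wild-type and 13.4, 14.5, 12.9, 12.6 and 15.0 in Setd1a+/- libraries. Replicate 2 of the wild-type group was again the highest, and its log2 fold change of −0.29 (adjusted p = 0.339) was −0.01 without it (adjusted p = 1.00). Oligodendrocyte markers at P7 summed to 37.3, 179.7, 37.1, 41.8 and 38.3 RPKM in wild-type and 36.6, 38.1, 36.5, 37.03 and 34.4 in Setd1a+/- libraries; 3 of 5 were called lower in Setd1a+/- and 4 had an unadjusted p under 0.05, with Cnp the most abundant and none at 0. Choroid plexus markers summed to 0.330, 506, 0.137, 0.458 and 0.365 and 0.301, 0.302, 0.295, 0.344 and 0.601 RPKM, led by Ttr, with Ttr and Folr1 at 0 in some libraries and 1 of 3 called lower. Without wild-type replicate 2, 0 of 5 oligodendrocyte and 0 of 3 choroid plexus markers were called. Replicate 2 of the wild-type group held the highest value of Plxnb3, Plxnb2 and both marker sums, and neither plexin was called with or without it. Plxna2, at 0.20, was the last of the 3 (adjusted p = 0.475), and without wild-type replicate 2 it was 0.10 (adjusted p = 1.00).

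**Figure D5:**
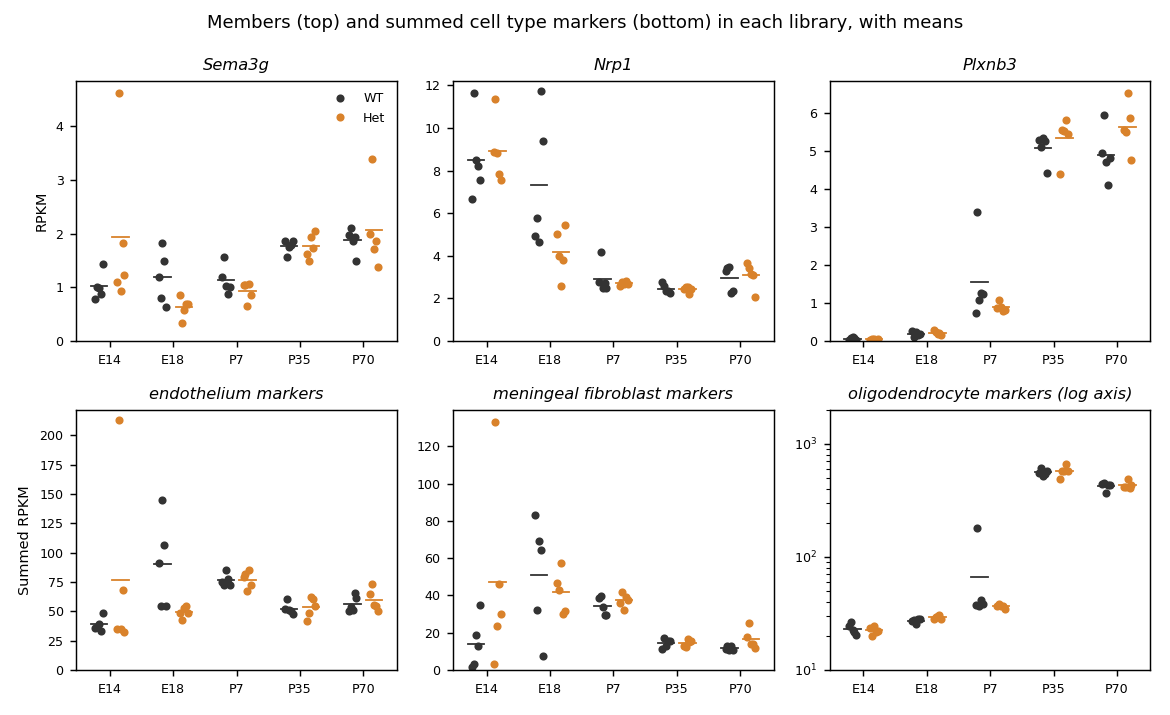
Upper panels, RPKM of Sema3g, Nrp1 and Plxnb3; lower panels, summed RPKM of endothelium, meningeal fibroblast and (on a log axis) oligodendrocyte markers, in each library by age, wild-type in black and Setd1a+/- in orange with group means. Setd1a+/- replicate 2 at E14 holds 4.63 RPKM of Sema3g and 212.6 of endothelium markers, and wild-type replicate 2 at P7 holds 3.40 of Plxnb3 and 179.7 of oligodendrocyte markers.

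The panels of single libraries place these members over the marker sums. The library that stands out for Sema3g at E14 does so for endothelium and meningeal fibroblast markers, and that for Plxnb3 at P7 for oligodendrocyte markers. Wild-type replicate 2 at P7 was also the highest of its group for Nrp1 (4.18 RPKM). Its endothelium sum, 72.3 RPKM, lay within the range of the P7 libraries (67.2 to 85.1). At E18 the wild-type libraries are spread for Nrp1, Sema3g and the endothelium sum. Sema3g and the endothelium sum were both highest in replicates 3, 4 and 1, in that order, whereas Nrp1 was highest in replicates 4, 5 and 2. Replicate 5 was the lowest of its group for Sema3g and the meningeal fibroblast sum (7.35 RPKM).

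Among the partners, Vegfa, the vascular growth factor that binds Nrp1, was the one gene of either list called by genotype, and it was picked after its values were seen. Of all tested genes, 4.43% were called with age as a covariate and 0.11% at E18. At E18 its level was 24.2, 31.7, 26.8, 32.1 and 26.7 RPKM in wild-type and 33.2, 34.6, 37.3, 43.7 and 37.2 in Setd1a+/- libraries, which did not overlap (log2 fold change 0.39, standard error 0.0817, adjusted p = 0.0275). At E14 it was 18.1, 20.6, 16.5, 18.99 and 16.1 in wild-type and 20.3, 22.0, 21.8, 19.8 and 25.8 in Setd1a+/- libraries, at P7 22.7, 20.4, 23.1, 22.8 and 23.8 and 22.1, 22.2, 23.7, 22.4 and 23.9. The P35 values were 29.8, 24.3, 27.2, 25.9 and 24.3 and 30.2, 29.2, 26.4, 24.8 and 24.9, and those at P70 24.4, 24.0, 28.7, 23.9 and 28.5 and 26.3, 26.4, 28.4, 27.8 and 22.8. The genotypes overlapped at each of these 4 ages, with log2 fold changes of 0.28, 0.02, 0.04 and 0.02. With age as a covariate Vegfa was higher in Setd1a+/- tissue (log2 fold change 0.15, standard error 0.0418, adjusted p = 0.0199), at adjusted p = 0.0504 without the Xist libraries and wild-type replicate 2 at P7. The E18 call did not hold without wild-type replicate 1 (0.34, adjusted p = 0.0867) or 3 (0.38, 0.0677) or without Setd1a+/- replicate 4 (0.33, 0.0911) or 5 (0.40, 0.0558) at that age. Of the 31 mediators edgeR called 0 by genotype in each of the 7 tests; 5 had an unadjusted p under 0.05 with age as a covariate (14.5% of all genes) and 0 in the interaction (6.72%), and their median log2 fold change with age as a covariate was 0.01.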

How the data were processed

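RNA of frontal brain regions (embryos) or frontal cortex (after birth) from 50 mice was sequenced, 5 per genotype at each of 5 ages. The deposited values are raw counts per gene, which the authors made with featureCounts 1.4.6-p2 and Ensembl release 102, per the file headers, after alignment with STAR to GRCm38; FastQC and Trimmomatic are also named in the submitters' processing notes. By the options in those headers a fragment over several annotated genes was counted for each, without regard to strand. Libraries hold 35507165 to 43907318 counts, and none was left out. Of 55487 genes in the files, 21897 are protein-coding in the GENCODE annotation, and 16330 passed filterByExpr (minimum count 10) and were tested.

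After TMM scaling, edgeR 4.0.16 was used on the counts (glmQLFit and glmQLFTest; R 4.3.3), with Benjamini-Hochberg adjustment over all tested genes. One model held genotype with age as a covariate, another the 4 interaction terms, and the last the 10 groups, from which genotype at each age and consecutive ages were contrasted; in that last model all libraries share 1 estimate of the spread. RPKM was computed from TMM-scaled counts and summed exon length. DESeq2 1.42.0, limma-voom (limma 3.58.1), other scalings, other filters on low counts, other thresholds, libraries of 1 genotype, a replicate block and each library left out in turn were alternatives. Some marker genes of the planned lists are not reported here and entered no sum or count. The steps were tested on simulated data.

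The rule for naming members by genotype took an unadjusted p under 0.05 with age as a covariate, an adjusted p under 0.05 in any genotype test, the smallest interaction p, and Sema4c; other members, such as those with an unadjusted p under 0.05 at 1 age, were picked after their values were seen. By age it took up to 3 rises and 3 falls of at least 2-fold at each step. The members, the lists and these rules were chosen with earlier results of these data known.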

Additional observations from a re-analysis of the deposited data

Results flagged for a closer look

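A value stood out where its gap to the nearest library of its group exceeded 0.71 of the range of the 5 libraries. This held for 10 values in 160 groups of 16 genes. The rule flags about 1 in 20 independent groups by chance. Some of these genes were picked after their values were seen, and the genes share libraries. The count therefore cannot be compared with that rate. Wild-type replicate 2 at P7 held 5 of them: it was the highest for Sema4c (gap 0.913 of the range, at 14.5 RPKM), Plxnb2 (0.935, at 28.4), Plxnb3 (0.802, at 3.40) and Nrp1 (0.825, at 4.18), and the lowest for Sema3c (0.732, at 3.30). Setd1a+/- replicate 2 at E14 was the highest for Sema3g (0.761, at 4.63 RPKM). At P35 the gaps were 0.734 for Sema3d in Setd1a+/- replicate 4, the highest, 0.822 for Sema4b in Setd1a+/- replicate 1, the highest, and for Plxnb3 0.735 in wild-type replicate 5 and 0.752 in Setd1a+/- replicate 1, both the lowest.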

How the results depend on the processing

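8 of the 11 counts were 0, and 77 of their 83 alternatives, besides leaving out 1 library, were 0 too. For the other 3 counts 32 of 36 alternatives stayed within 1.5-fold. Members called by genotype were 0 with age as a covariate, in the interaction, at P35 and at P70 in every alternative run. At E14 the count was 2 without the Xist libraries and 3 without these and wild-type replicate 2 at P7, an alternative chosen after seeing the data, and 0 to 2 with 1 library left out. At E18 it was 1 with DESeq2, 1 without the Xist libraries, 2 in the alternative added later and 0 to 2 with 1 library left out, and at P7 it was 0 to 1 with 1 library left out. Members changed at least 2-fold from E14 to E18 numbered 5 in Setd1a+/- libraries alone and 3 to 4 with 1 library left out. At a 1.5-fold minimum the counts were 12, 16 and 14 over the first 3 steps, and with 1 library left out 6 to 9 from E18 to P7, 9 from P7 to P35 and 0 from P35 to P70. The cause of these shifts was not tested.

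The 12 changes named by age step kept their direction and call throughout. The log2 fold change of Sema4c with age as a covariate ran from −0.00266 to 0.0289 and that of Sema6b at E14 from −0.247 to 0.0557 with 1 library left out, so the sign changed in both.

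Replicate numbers were not taken as pairs. Over 25 pairs of same-numbered libraries of 1 age, deviations from group means correlated at −0.20 to 0.46, with 9 over 0.1. In 5 pairs both libraries correlated highest with each other, a count that leaves out pairs where this held for only 1 of the libraries. With the replicate block 1 member was called at E18 (Nrp1, log2 fold change −0.75, edgeR adjusted p = 0.0263), and the block changed no other count of calls. By mistake the planned list gave P70 the alternatives of the age steps: there the block was run within age only, as a later addition, and libraries of 1 genotype cannot give a genotype value. Plxnb3 at E14 rests on 5 to 26 counts per library, which limits the precision of its first step.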
